A study of Mus musculus with 12 samples.

Results

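Wild-type neutrophils were compared between wells with immobilized immune complexes (IC) and control wells, across all annotated transcript clusters of an Affymetrix mouse gene array and in both directions. The comparison takes the arrays labelled wild type IC and wild type control of experiments 1, 2 and 3, that is 6 of the 12 arrays of the series, with 3 arrays on each surface, and the difference was read within each experiment as the log2 signal on IC minus the log2 signal on control. The cells were neutrophils from the bone marrow of C57BL/6 mice, isolated by hypotonic lysis of red cells and a Percoll gradient. They were kept for 4 h on wells coated with human serum albumin alone (control) or with human serum albumin and antibodies against it (IC), and attached and floating cells were pooled before 150 ng of RNA were labelled for each array. The other 6 arrays are Card9-/- neutrophils of the same experiments on the same surfaces. The sources do not say how many mice went into an experiment or whether the experiments used different animals, so that the p-values measure the spread between these samples only.

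Immobilized IC bind the Fc gamma receptors of neutrophils, which signal through Src-family kinases, Syk and phospholipase C to the NADPH oxidase, to degranulation and to gene transcription. In myeloid cells the adaptor CARD9 links Syk to the transcription factor NF-kB, while MAP kinase pathways act on AP-1 and on the early response genes. Neutrophils on IC are known as a source of chemokines, cytokines of the interleukin-1 family and leukotrienes in antibody-induced inflammation.

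The start regions of 5 genes that recur in the results below are shown. They were chosen after their values were seen and because they hold a motif match, and Rab20 and Idh1, which recur as well, hold none of the motifs searched. The sequences are the 250 bases before the transcription start in RefSeq on GRCm38.p6, written 5′ to 3′ on the strand of the gene. Capitals mark matches to the NF-kB consensus, to the AP-1 motif TGANTCA and to the antioxidant response element TGACNNNGC, searched on both strands.
Il1a, chr2:129309973-129310222, minus strand: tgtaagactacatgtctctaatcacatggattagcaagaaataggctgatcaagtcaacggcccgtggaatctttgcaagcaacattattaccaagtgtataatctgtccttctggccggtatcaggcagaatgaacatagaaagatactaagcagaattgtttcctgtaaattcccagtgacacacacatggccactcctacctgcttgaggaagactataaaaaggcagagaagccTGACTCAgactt
Il6, chr5:30012864-30013113, plus strand: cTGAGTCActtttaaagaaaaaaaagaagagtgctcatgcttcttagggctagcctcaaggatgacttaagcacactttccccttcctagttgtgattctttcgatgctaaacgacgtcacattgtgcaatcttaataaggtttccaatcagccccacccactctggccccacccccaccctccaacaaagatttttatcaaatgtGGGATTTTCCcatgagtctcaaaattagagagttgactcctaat
Ccrl2, chr9:111057519-111057768, minus strand: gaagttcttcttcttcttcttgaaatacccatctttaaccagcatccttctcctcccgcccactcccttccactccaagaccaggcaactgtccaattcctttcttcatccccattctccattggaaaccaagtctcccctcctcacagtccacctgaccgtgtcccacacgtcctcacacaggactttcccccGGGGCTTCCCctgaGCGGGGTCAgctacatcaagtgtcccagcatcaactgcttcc
Cxcl1, chr5:90890995-90891244, plus strand: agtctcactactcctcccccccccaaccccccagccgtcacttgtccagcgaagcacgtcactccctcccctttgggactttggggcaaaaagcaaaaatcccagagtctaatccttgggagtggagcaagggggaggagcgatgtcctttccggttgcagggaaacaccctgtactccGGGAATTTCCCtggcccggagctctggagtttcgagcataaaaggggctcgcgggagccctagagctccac
Cxcl2, chr5:90903649-90903898, plus strand: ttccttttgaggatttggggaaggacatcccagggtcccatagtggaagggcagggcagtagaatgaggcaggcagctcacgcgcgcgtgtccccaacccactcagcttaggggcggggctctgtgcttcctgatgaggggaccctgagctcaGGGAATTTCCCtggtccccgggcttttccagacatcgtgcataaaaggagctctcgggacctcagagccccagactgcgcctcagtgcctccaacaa
In Il1a the capitals are an AP-1 match at bases -12 to -6 from the start. Il6 holds an AP-1 match at -249 to -243 and an NF-kB match at -44 to -35. Ccrl2 has further starts, 1 of which is shown, with an NF-kB match at -56 to -47 followed by an antioxidant response element at -42 to -34. The neighbouring chemokine genes Cxcl1 and Cxcl2 carry the same GGGAATTTCCC, which matches the NF-kB consensus on both strands with an overlap, at -71 to -61 and at -97 to -87. Of the 12 genes with the largest difference reached in every experiment upward, 10 had a start region, of which 3 held the NF-kB consensus, 3 AP-1, 3 the antioxidant response element and 1 the CRE motif TGACGTCA. Of the 12 downward, 11 had one, with 0, 1, 0 and 1 matches. Among all 27025 genes with a start region the shares were 4.46%, 7.82%, 11.5% and 1.77%. In each of these counts a gene held a motif if any of its starts did, so that genes with more starts had more windows searched. The 3 genes with the antioxidant response element (Acp5, Ccrl2 and Maff) have 3 starts each. A match describes the letters in this window only, and binding of any factor was not measured.

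The cells carried the signals of neutrophils on both surfaces. The 14 neutrophil markers measured had mean log2 signals of 11.09 to 12.98 on control and of 11.40 to 12.99 on IC, and the median of their differences was -0.06. Lists of markers of other cells had mean signals between 5.13 and 7.38 on control and between 5.23 and 7.30 on IC. Single members of these lists ran from 3.81 to 12.11 on control and from 3.97 to 12.24 on IC. The highest member was in the list of eosinophils, basophils and mast cells. The monocyte and macrophage list reached 10.08 on control and 10.39 on IC. The list of dendritic cells and MHC class II had a median difference of 0.31 in experiment 3, where its mean signal was 6.57 on control and 7.01 on IC, and the B cell list had -0.20, -0.03 and 0.21 in experiments 1, 2 and 3. The part of such cells in the values below was not tested, and in bulk samples fewer cells of a type and less RNA per cell cannot be told apart. Both arrays of experiment 3 had low weights when arrays were weighted by their residuals (0.474 for control and 0.371 for IC, where 1 is the average), and so had the IC array of experiment 2 (0.5).

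No gene passed the test over all clusters, so that the differences below are given as measured values. In the limma fit of the 12 arrays with the experiment as a block, 0 of 28848 clusters (0%) had an adjusted p under 0.05, 1 had an adjusted p under 0.1 (0.00347%) and 10 under 0.2 (0.0347%), while 2770 (9.6%) had an unadjusted p under 0.05. With the experiment as a random block, 7 clusters passed, all with a higher signal on IC (Rab20, Rhov, Il1a, Cstb, Acp5, Snai1 and Atmin). In all 3 experiments the signal was higher on IC for 5411 clusters (18.8%) and lower for 3543 (12.3%). With an unadjusted p under 0.05 as well, 1352 clusters were higher (4.69%) and 1155 lower (4%), and after centring each array on its median this split was 634 higher and 1780 lower. The split also depended on the signal. Among the 9969 genes above the median signal, 12.1% were higher and 22.4% lower in 3 of 3 experiments (3.64% and 8.63% with an unadjusted p under 0.05 as well), against 18.6% and 13.4% of all 19938 genes (4.61% and 4.55%).

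The experiments differed in what they showed. The clusters higher by 1 or more on the log2 scale numbered 198, 86 and 179 in experiments 1, 2 and 3, and those lower by 1 or more numbered 31, 16 and 461. Experiment 3 therefore had most of its large differences downward, whereas experiments 1 and 2 had most of theirs upward. At least 50 of the 461 clusters hold 1 set of identical values, so that 1 profile is counted repeatedly. With the clusters divided into 4 equal groups by mean signal, the group with the highest signal had a median difference of -0.21 in experiment 3 and the 3 others 0.12, 0.16 and 0.10, from the lowest signal up. In experiments 1 and 2 all such medians lay between -0.04 and 0.05.

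**Figure D1:**
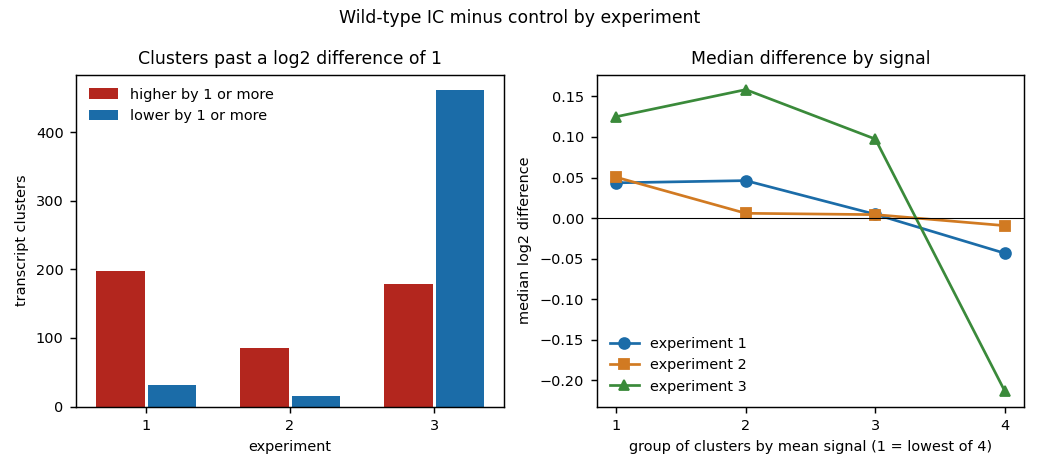
Left, number of transcript clusters whose log2 signal in wild-type cells was higher (red) or lower (blue) by 1 or more on IC than on control, for each experiment. Right, median log2 difference in 4 equal groups of clusters by mean signal, which is -0.21 in the highest group of experiment 3 and stays between -0.04 and 0.05 in experiments 1 and 2.

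The differences of experiments 1 and 2 resembled each other more than those of experiment 3. Across the 28848 clusters, which share arrays and are not independent, Pearson's r was 0.27 between experiments 1 and 2, 0.06 between 1 and 3 and 0.08 between 2 and 3. Across the genes above the median signal it was 0.53, 0.09 and 0.10. Of the 198 clusters higher by 1 or more in experiment 1, 176 (88.9%) were above 0 in experiment 2 and 112 (56.6%) in experiment 3, with median differences of 0.44 and 0.09. The 461 clusters lower by 1 or more in experiment 3 were below 0 for 235 (51.0%) in experiment 1 and 313 (67.9%) in experiment 2. At least 50 of the 461 hold 1 set of identical values, and these 50 all lie among the 313. Of the 31 clusters lower by 1 or more in experiment 1, by contrast, 3 (9.68%) were below 0 in experiment 2 and 7 (22.6%) in experiment 3, with median differences of 0.34 and 0.48. Among the clusters that represent a gene, the largest downward differences of experiment 1 were -1.19, -1.155 and -1.09, followed by -0.99. Most of the 31 clusters thus do not represent a gene. The genes at the first 3 values were at 0.07, -0.52 and 0.13 in experiment 2 and at -0.30, -0.01 and -0.42 in experiment 3. Counted by clusters, most large upward differences of experiment 1 kept their sign in experiment 2, and few of its downward ones did.

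**Figure D2:**
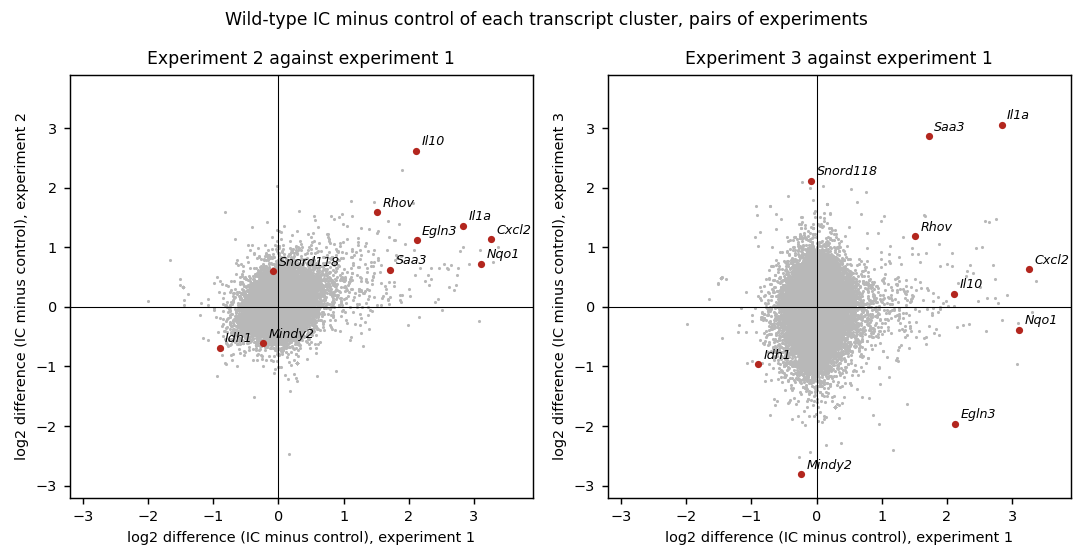
Log2 difference between IC and control of each transcript cluster in wild-type experiment 2 (left) and experiment 3 (right) against experiment 1, with named genes in red. Il1a, Rhov and Cxcl2 lie above 0 on every axis and Idh1 below 0, Nqo1 is at 3.11 in experiment 1 and at -0.38 in experiment 3, and Egln3 is above 0 in experiments 1 and 2 and at -1.96 in experiment 3.

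Few genes had a large difference in every experiment. A difference of 0.5 or more in each of the 3 was found for 29 genes upward (0.145%) and 11 downward (0.0552%), and of 1 or more for 2 upward (0.01%), Il1a and Rhov, and 0 downward. The 12 genes with the largest difference reached in every experiment upward included cytokines and chemokines (Il1a, Il6, Ccl4), a receptor (Ccrl2), transcription factors (Maff, Fosl1, Batf, Ciart), small GTPases (Rhov, Rab20), a phosphatase (Acp5) and a lipid droplet protein (Hilpda). Their mean differences ranged from 1.00 to 2.42 with a median of 1.12, and their adjusted p from 0.0691 to 0.569. These genes were chosen by the differences of these arrays, so that their sizes are a description.

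Il1a, which encodes interleukin-1 alpha (transcript cluster 10487588), had log2 signals of 3.73, 7.20 and 5.68 on control and of 6.57, 8.56 and 8.73 on IC in experiments 1, 2 and 3. Each IC value was above the control of its own experiment, and the groups overlapped because the control of experiment 2 was above the IC value of experiment 1. The mean difference was 2.42 (95% confidence interval 1.66 to 3.18, adjusted p = 0.139), a fold of 5.35. Rhov, a small GTPase (10486197), had signals of 6.71, 6.65 and 5.75 on control and of 8.22, 8.24 and 6.94 on IC. All its IC values were above all its control values, with a mean difference of 1.43 (1.02 to 1.83, adjusted p = 0.105). Rab20, a GTPase of phagosome maturation (10577025), had the smallest p of all clusters. Its signals were 7.81, 8.16 and 7.86 on control and 8.93, 9.01 and 8.88 on IC, groups that did not overlap, and the mean difference was 1.00 (0.74 to 1.25, adjusted p = 0.0691). The adjusted p of Rab20 over 14 alternative fits ranged from 0.00834 to 1, and its difference from 0.93 to 1.07. In the whole array all 3 IC values were above all 3 control values for 175 genes (0.878%) and below them for 186 (0.933%).

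Ccl4, a chemokine for monocytes and T cells, had signals of 7.18, 7.78 and 9.64 on control and of 9.25, 9.52 and 10.55 on IC (mean difference 1.57, SE 0.39, adjusted p = 0.364). Its control in experiment 3 was above the IC values of experiments 1 and 2. Ccrl2, an atypical receptor that binds chemerin, had 9.18, 9.96 and 9.81 on control and 10.84, 10.92 and 11.34 on IC (1.39, SE 0.37, adjusted p = 0.391), without overlap. For Il6 the signals were 3.92, 6.54 and 4.55 on control and 5.38, 7.49 and 5.54 on IC. Its differences of 1.46, 0.95 and 0.99 were alike, but the standard error of the fit over all 4 groups was 0.61, with an adjusted p of 0.569. Acp5, the tartrate-resistant acid phosphatase of lysosomes, had 6.21, 6.59 and 6.53 on control and 7.21, 7.42 and 7.97 on IC, again without overlap (1.09, SE 0.16, adjusted p = 0.139). Hilpda, a lipid droplet protein that inhibits triglyceride breakdown, had differences of 0.94, 1.06 and 1.25, and its control in experiment 3 exceeded the IC values of the other experiments.

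**Figure D3:**
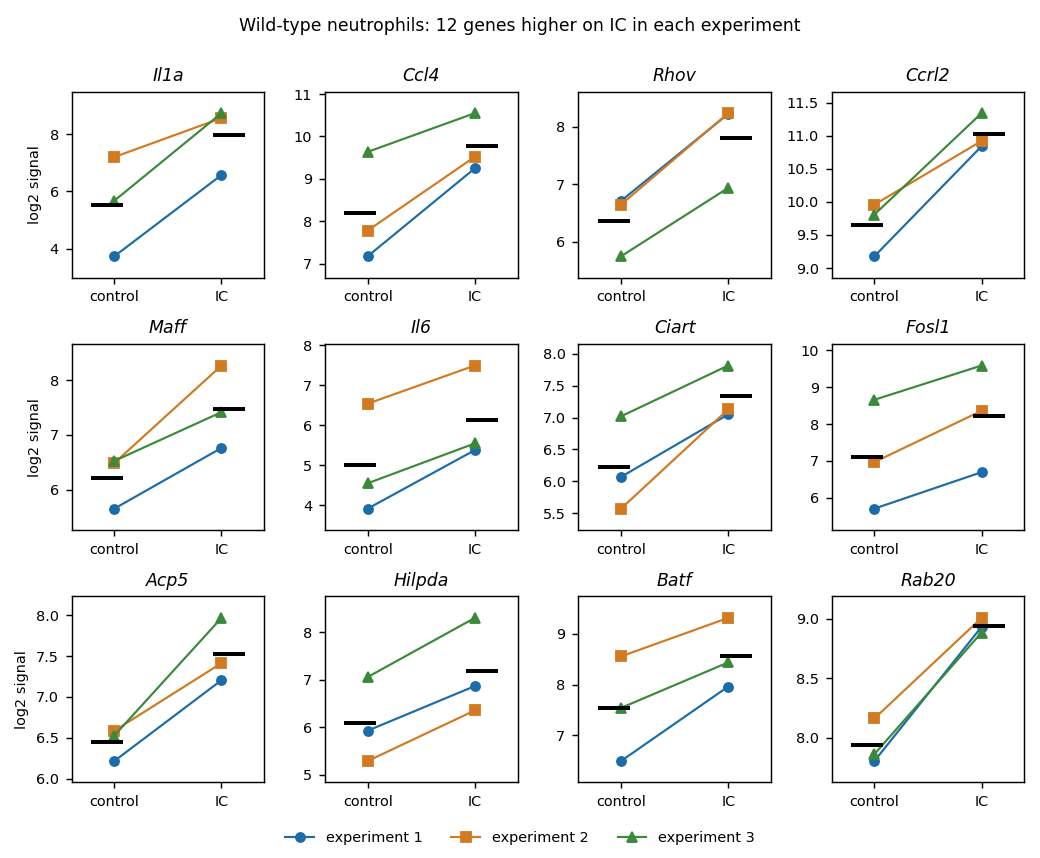
Log2 signals of the 12 genes with the largest difference reached in every experiment upward, on control and on IC, with a line for each of the 3 wild-type experiments and a black bar for the mean of the 3 arrays. All lines go up, and for Rhov, Ccrl2, Maff, Ciart, Acp5 and Rab20 the IC points all lie above the control points.

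Among the ligands, the chemokines of the CXC family, some of which attract neutrophils, were higher on IC in 3 of 3 experiments for 6 of 11 genes and lower for 0, and the 6 also had an unadjusted p under 0.05. Their median difference was 0.36, against 0.03 for all genes. Of all genes 18.6% were higher and 13.4% lower in 3 of 3 experiments, and these shares stand beside each list count below. Among the genes above the median signal they were 12.1% and 22.4%. With an unadjusted p under 0.05 as well, the shares higher and lower were 4.61% and 4.55% of all genes. Among the genes above the median signal the latter shares were 3.64% and 8.63%. For Cxcl1 the signals were 6.23, 6.78 and 6.30 on control and 7.005, 7.37 and 7.54 on IC, groups that did not overlap (mean difference 0.87, SE 0.17, adjusted p = 0.260). Cxcl2 differed by 3.26, 1.14 and 0.63, from control signals of 7.57, 10.15 and 11.83. The experiment with the lowest control signal of Cxcl2 was thus the one with its largest difference. Cxcl3 and Cxcl16 had mean differences of 0.83 and 0.72, both higher in every experiment. The CC chemokines, attractants of monocytes and lymphocytes, had 4 of 13 higher, 1 with an unadjusted p under 0.05 (Ccl4), and a median of 0.13. Ccl3 was already at 11.89, 12.80 and 12.87 on control and at 12.45, 12.87 and 13 on IC.

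The interleukin-1 family had 6 of 13 genes higher in 3 of 3 experiments and 0 lower, with a median of 0.14. Beside Il1a these included Il1f6, which encodes interleukin-36 alpha (0.24, 0.90 and 1.13), the receptor antagonist Il1rn (0.89, 0.34 and 0.19) and the decoy receptor Il1r2 (0.20, 0.33 and 0.44). Il1b showed a difference in experiment 1 only, from 10.67 to 12.10, and was at 12.41 and 12.34 in experiment 2 and at 12.59 and 12.67 in experiment 3. Among 27 other cytokines 14 were higher and 0 lower in 3 of 3 experiments, 7 of them with an unadjusted p under 0.05, and the medians of 0.24, 0.19 and 0.22 were close across the experiments. Il23a, a subunit of interleukin-23, had differences of 0.53, 1.25 and 1.98. The deactivating cytokine Il10 had 2.11, 2.62 and 0.22, and Tnf 2.45, 0.14 and 0.99. Csf3, the growth factor G-CSF of neutrophils, had 0.32, 0.58 and 0.65. Each of these was above 0 in every experiment, but for Il10 and Tnf by unequal amounts.

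Of 20 cytokine and growth factor receptors 0 were higher and 5 lower in 3 of 3 experiments, a share lower that is near the 22.4% of the genes above the median signal, and the list has a median control signal of 10.04. Its medians were 0.23, -0.04 and -0.44 in experiments 1, 2 and 3, and without experiment 3 the median of the list was 0.09 instead of -0.07. Il6ra, the interleukin-6 receptor, had differences of -0.43, -0.51 and -0.69 (mean -0.55), and Il17ra, the interleukin-17 receptor, had -0.39, -0.46 and -0.95. The receptor Il10ra went the other way in experiment 1, at 2.51, -0.04 and 0.33. Among 13 chemoattractant receptors 2 were higher and 3 lower, with a median of -0.15 (0.00 without experiment 3), and Cxcr4, the receptor that retains neutrophils in the bone marrow, had -0.16, -0.18 and -0.43. The list of Fc gamma receptors and their signalling had 3 of 16 higher and 5 lower. Fcgr4, an activating receptor for IC, had 0.34, 0.28 and 0.43, Malt1, a partner of CARD9, had 1.02, 0.45 and 0.20, and Plcg2, the phospholipase, had -0.20, -0.21 and -0.30. Card9 itself was at 8.42, 8.43 and 8.75 on control and at 8.08, 8.21 and 8.50 on IC.

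Pattern recognition receptors had 6 of 23 Toll-like and NOD-like genes higher in 3 of 3 experiments and 1 lower, with experiment medians of 0.68, 0.18 and -0.21 and a median of 0.06 without experiment 1. The sensors Nod1 (2.47, 0.65 and 0.09), Nlrp3 (1.38, 0.28 and 0.26) and Nod2 (0.82, 0.44 and 0.12) had their largest differences in experiment 1. Of 14 C-type lectin receptors 4 were higher and 4 lower. Clec4n, which encodes Dectin-2, had differences of 3.37, 1.00 and 0.44, and Olr1, a receptor for oxidized lipoproteins, 1.45, 0.52 and 0.09. In the other direction Clec12a, an inhibitory receptor of neutrophils, had -0.46, -0.54 and -0.06, and Clec4a3 had -0.11, -0.65 and -0.81. Among 21 inhibitory receptors and phosphatases 2 were higher and 9 lower in 3 of 3 experiments, 2 of the 9 with an unadjusted p under 0.05. This list also has a median control signal of 10.04, and of the genes above the median signal 22.4% were lower in 3 of 3 experiments and 8.63% lower with such a p. Milr1, an inhibitory immunoglobulin-like receptor, had -0.32, -0.54 and -0.53, while Cd274, the ligand PD-L1, had 1.35, 0.47 and 0.24.

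Of 33 genes of the AP-1, EGR and NR4A families and related factors, 15 were higher and 0 lower in 3 of 3 experiments, 13 of them with an unadjusted p under 0.05 against 4.61% of all genes, and the other 18 did not keep 1 direction. The list medians of the experiments were close, at 0.30, 0.20 and 0.24. Maff, a small Maf protein, had signals of 5.65, 6.49 and 6.52 on control and of 6.76, 8.27 and 7.41 on IC, without overlap (mean difference 1.26, SE 0.21, adjusted p = 0.205). Snai1, a repressor of adhesion genes, had a smaller and very even difference of 0.65, 0.53 and 0.72, also without overlap (adjusted p = 0.148). Fosl1, Egr1 and Batf had mean differences of 1.10, 0.69 and 1.04. Nr4a3, an orphan nuclear receptor, had 1.90, 2.29 and 0.68.

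The NF-kB genes had a different course. Of 27 subunits, inhibitors and feedback genes, 10 were higher and 1 lower in 3 of 3 experiments, 9 and 1 with an unadjusted p under 0.05, but the experiment medians were 0.98, 0.10 and -0.07. Without experiment 1 the median of the list was 0.06. Nfkbid, a nuclear IkB protein, was at 9.80, 10.10 and 10.50 on control and 10.85, 10.69 and 11.05 on IC, without overlap (0.73, SE 0.13, adjusted p = 0.226). Traf1, a signalling adaptor of TNF receptors, had 2.17, 0.65 and 0.41, Nfkb2 1.78, 0.36 and 0.23, and Nfkbib 0.84, 0.42 and 0.36. Ikbke, a kinase of interferon and NF-kB pathways, ran from 3.09 in experiment 1 over 0.96 to -0.27. Each of these had its largest difference in experiment 1.

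Among regulators of MAP kinase and TGF-beta signalling 9 of 22 were higher and 2 lower in 3 of 3 experiments, with a median of 0.24. The phosphatases Dusp5 (1.23, 1.16 and 0.28) and Dusp2 (1.21, 0.54 and 0.47) and the inhibitor Spred1 (0.34, 0.45 and 0.57) were higher, and Smad7, an inhibitor of TGF-beta receptors, was lower (-0.53, -0.39 and -0.60, adjusted p = 0.270). Of the SOCS and STAT genes 5 of 20 were higher and 3 lower, with Cish at 1.01, 0.63 and 0.08 and Stat5b at -0.17, -0.05 and -1.04. Among mRNA decay factors the endonuclease genes Zc3h12a (1.70, 0.05 and 0.32) and Zc3h12c (2.73, 0.53 and 0.15) were higher and Zfp36l2 lower (-0.35, -0.16 and -0.71).

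**Figure D4:**
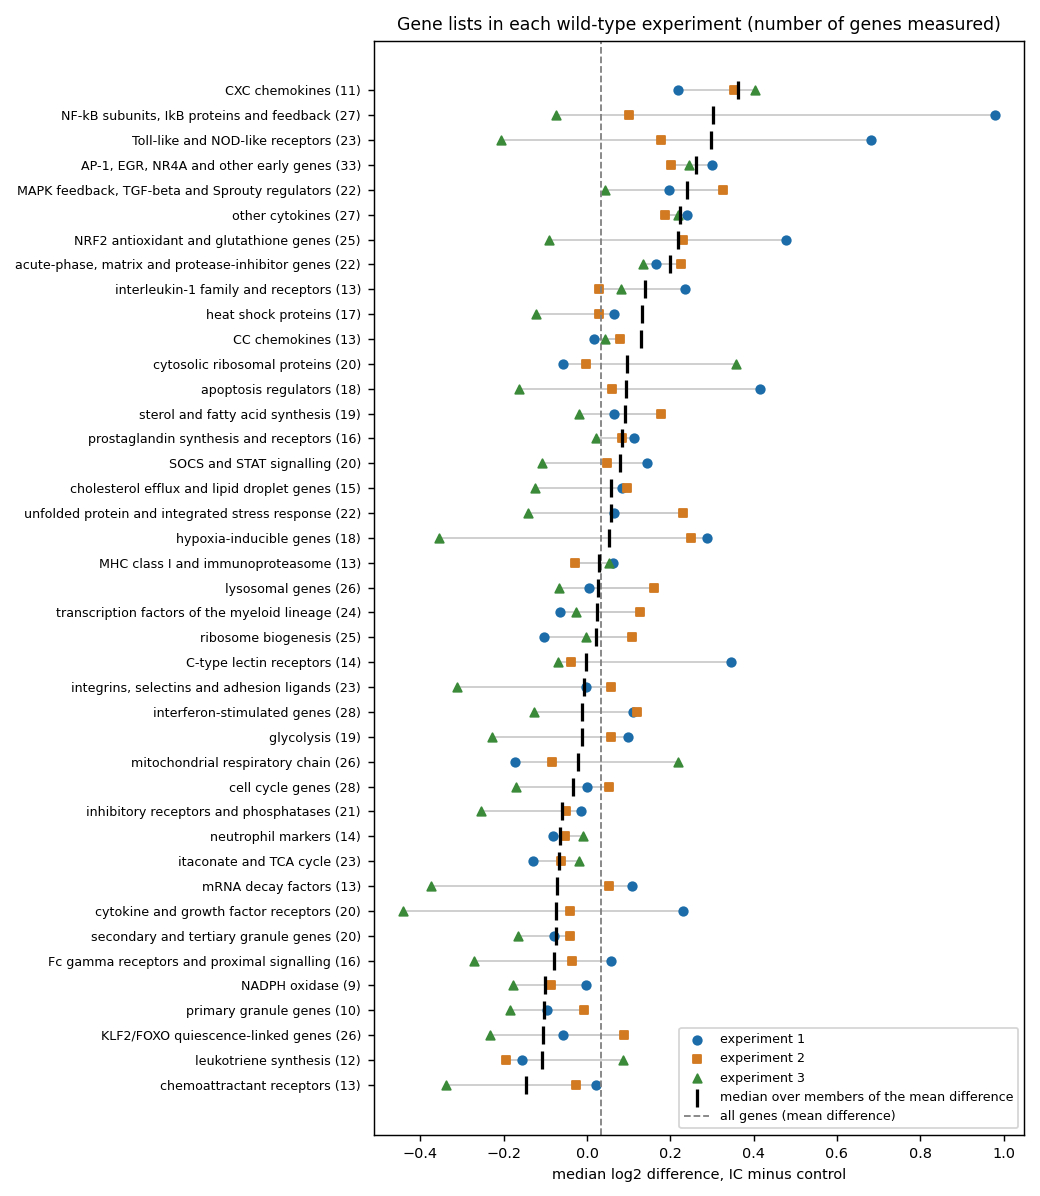
Median log2 difference between IC and control in each wild-type experiment for the gene lists shown, with the number of genes measured in brackets, the median of the mean differences as a black bar and that of all genes as a dashed line at 0.03. CXC chemokines, other cytokines and early genes have close medians in the 3 experiments, whereas the NF-kB list runs from 0.98 to -0.07.

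Genes of leukotriene synthesis differed little between the surfaces. Of 12 leukotriene genes 1 was higher and 5 lower in 3 of 3 experiments, 0 with an unadjusted p under 0.05, and the median was -0.11. The list has a median control signal of 9.21, and 22.4% of the genes above the median signal were lower in 3 of 3 experiments. Alox5, the lipoxygenase that starts leukotriene synthesis, was at 10.72, 10.54 and 10.72 on control and at 10.43, 10.37 and 10.60 on IC. Its activating protein Alox5ap had differences of -0.20, -0.10 and -0.14, and the hydrolase Lta4h had -0.05, -0.14 and -0.28. All such differences were small and below 0. Of 16 prostaglandin genes 5 were higher and 0 lower. Ptgs2, the inducible cyclooxygenase, had 2.93, 0.72 and 0.20, the synthase Ptges 0.74, 0.38 and 0.31, and the receptor Ptger4 0.36, 0.47 and 0.26.

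The NADPH oxidase had 1 of 9 genes higher and 5 lower in 3 of 3 experiments, with a median of -0.10, and the proton channel gene Hvcn1 had the largest mean difference of the list (-0.69, -0.78 and -0.30). Cybb, the catalytic subunit, was at 12.20, 12.42 and 12.24 on control and at 12.28, 12.29 and 11.72 on IC. The list of secondary and tertiary granule genes, which also holds genes of other products, had 1 of 20 higher and 9 lower. Of the 9, 2 had an unadjusted p under 0.05, namely Cd177 (-0.16, -0.18 and -0.42) and Padi4 (-0.42, -0.23 and -0.37). Padi4 encodes the histone deiminase of extracellular traps, which is not a granule protein. These counts stand against 22.4% of the genes above the median signal lower in 3 of 3 experiments, since genes of neutrophil granules have high signals. Adhesion molecules had 2 of 23 higher and 7 lower. Icam1, a ligand of the beta-2 integrins, had signals of 7.41, 10.29 and 8.88 on control and of 9.70, 10.82 and 9.39 on IC, and Itga6, an integrin for laminin, had -0.64, -0.39 and -0.55 (adjusted p = 0.270).

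Acute-phase, matrix and protease inhibitor genes had 12 of 22 higher and 2 lower in 3 of 3 experiments, 8 and 0 with an unadjusted p under 0.05, and a median of 0.20. Cstb, which encodes the cathepsin inhibitor cystatin B, had signals of 9.86, 9.53 and 9.61 on control and of 10.54, 10.38 and 10.38 on IC. These groups did not overlap, and the differences of 0.68, 0.84 and 0.76 were close to each other (adjusted p = 0.139). Saa3, an acute-phase serum amyloid, had 1.72, 0.63 and 2.86, from control signals of 4.48, 9.25 and 5.82. Serpinb2, an inhibitor of plasminogen activators, had 0.78, 1.11 and 0.36, and Tnfaip6, a hyaluronan-binding protein, 1.13, 0.94 and 0.19.

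Stress and metabolic genes were led by single members. The NRF2 list of antioxidant and glutathione genes had 4 of 25 higher and 1 lower in 3 of 3 experiments, with experiment medians of 0.48, 0.23 and -0.09. Srxn1 (2.84, 1.00 and -0.21), Prdx1 (1.89, 0.85 and -0.04) and Nqo1 (3.11, 0.72 and -0.38) shared this course, while Sod2, the mitochondrial superoxide dismutase and an NF-kB target, had 2.70, 0.28 and 0.70. In the itaconate and citric acid cycle list, 2 of 23 were higher and 7 lower, with Acod1, which makes itaconate, at 2.31, 0.37 and 0.61. This list has a median control signal of 8.45, and 22.4% of the genes above the median signal were lower in 3 of 3 experiments. Of 19 glycolysis genes 3 were higher and 3 lower, and Pfkfb4, a regulator of glycolytic flux, had -0.64, -0.23 and -0.84. Hypoxia-inducible genes had medians of 0.29, 0.25 and -0.36, and the unfolded protein list had Ppp1r15a at 1.58, 0.40 and 0.75 and the sensor kinase Eif2ak3 at -0.65, -0.16 and -1.54. Of 18 apoptosis regulators 2 were higher and 1 lower, with the pro-apoptotic Bcl2l11 at 1.23, 0.66 and 0.24 and Bbc3 at -0.13, -0.47 and -0.44. Bcl2a1c (1.65, 0.24 and 1.54) is 1 of several near-identical copies, whose signals the probes may not separate.

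Interferon-stimulated genes had 5 of 28 higher and 5 lower in 3 of 3 experiments and a median of -0.01. Neither count was far from the shares of all genes, 18.6% higher and 13.4% lower. Oas1a (0.35, 0.22 and 0.74), Isg20 (0.58, 0.32 and 0.35) and Irf7 (0.53, 0.34 and 0.24) were higher in every experiment, and the RNA sensor Ddx58 was lower (-0.17, -0.05 and -1.09). The proteasome activator subunits Psme1 and Psme2 were higher, with means of 0.35 and 0.51. Among myeloid transcription factors Cebpb, the factor of emergency granulopoiesis, had 1.56, 0.58 and 0.90, and Cebpe, the factor of granule gene expression, had -0.36, -0.37 and -0.32. Fli1 had -0.35, -0.33 and -0.35. The list of genes linked to KLF2, FOXO and quiescence had 1 of 26 higher and 9 lower, among them Rgs18, a regulator of G protein signalling (-0.43, -0.43 and -0.64), and the sphingosine receptor S1pr4 (-0.19, -0.40 and -0.76). Its median control signal is 8.96, and of the genes above the median signal 22.4% were lower in 3 of 3 experiments.

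The 12 genes with the largest difference reached in every experiment downward had smaller differences than those upward. Their means ranged from -0.87 to -0.57 with a median of -0.66, their adjusted p from 0.181 to 0.408, and for 0 of the 12 did all IC values lie below all control values. Slco4a1, a transporter of organic anions, had signals of 8.23, 7.69 and 8 on control and of 7.70, 6.95 and 7.25 on IC, a mean difference of -0.67 (95% confidence interval -0.91 to -0.44, adjusted p = 0.181). The IC value of experiment 1 was level with the control of experiment 2. Idh1, the cytosolic isocitrate dehydrogenase that makes NADPH, had 8.29, 8.82 and 7.41 on control and 7.39, 8.13 and 6.45 on IC, a mean difference of -0.85 (-1.22 to -0.47, adjusted p = 0.270). Amer2, a regulator of Wnt signalling, had the largest mean difference of the 12, at -0.80, -0.58 and -1.24 in the 3 experiments.

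The other genes of this set belong to glycan, lipid and ubiquitin pathways and to signalling. Gcnt1, which builds the branched O-glycans of selectin ligands, had differences of -0.59, -0.51 and -1.20. Asah1, the acid ceramidase, had -0.52, -0.53 and -0.75, Pcyox1, the prenylcysteine oxidase, -0.55, -0.58 and -0.67, and Abhd15 -0.86, -0.81 and -0.56. Ffar2, a receptor of neutrophils for short-chain fatty acids, had -0.62, -0.62 and -0.73. The ubiquitin ligase subunits Fbxo10 and Klhdc2 had means of -0.63 and -0.57, the exchange factor Arhgef4 -0.66 and the adhesion molecule Mcam -0.57. In each of these the range of the control signals over the experiments exceeded the difference between surfaces. Of the 15 genes with the smallest p downward, Gne, the first enzyme of sialic acid synthesis, was the one without overlap, at 7.50, 7.20 and 7.24 on control and at 6.97, 6.38 and 6.92 on IC (mean -0.55, adjusted p = 0.279).

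**Figure D5:**
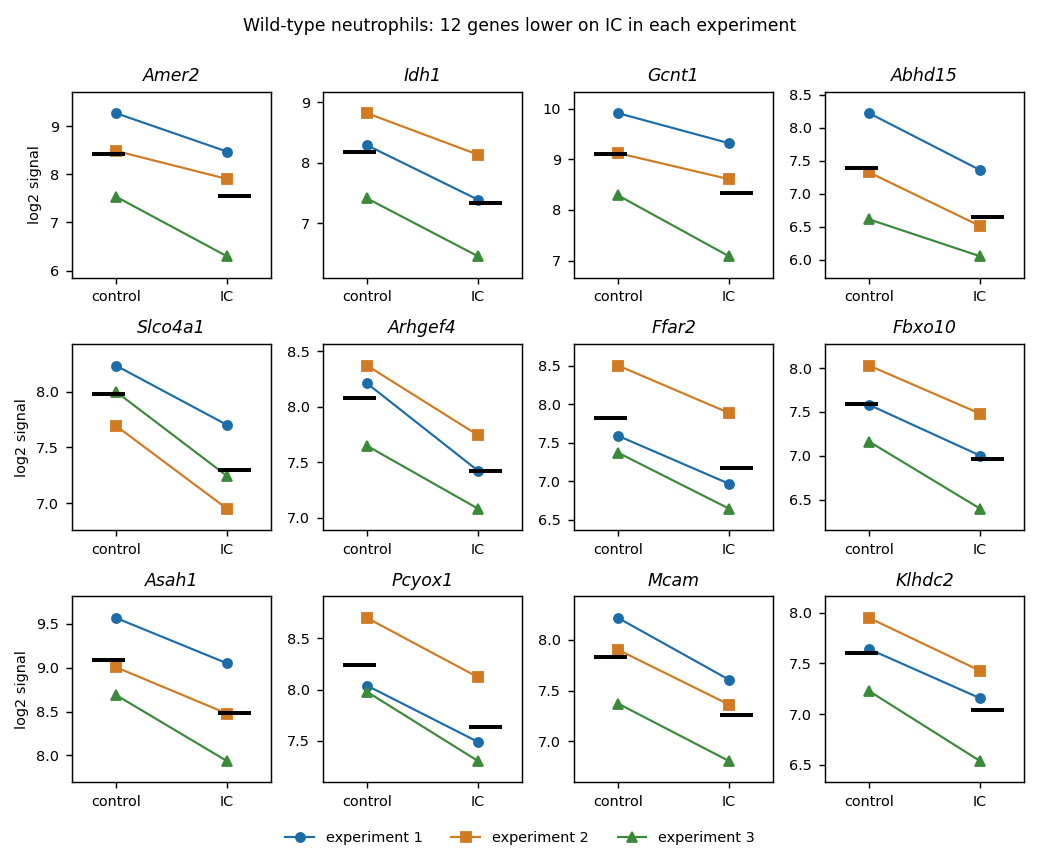
Log2 signals of the 12 genes with the largest difference reached in every experiment downward, on control and on IC, with a line for each of the 3 wild-type experiments and a black bar for the mean of the 3 arrays. All lines go down, and in each panel the points on control and on IC overlap in height.

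The largest differences of a single experiment were shared with the others only in part. In experiment 1 the largest were Clec4n, Eid3, Cxcl2, Nqo1 and Ikbke, at 3.09 to 3.37, of which Eid3, Nqo1 and Ikbke were at -0.08, -0.38 and -0.27 in experiment 3. For Clec4n, Eid3, Cxcl2 and Ikbke the control of experiment 1 was the lowest of the 3, at 6.86 for Clec4n against 9.30 and 8.43 in experiments 2 and 3, and at 6.54 for Ikbke against 9.65 and 7.60. For Nqo1 it was 5.95, against 8.81 and 5.82. These genes were chosen by a difference from which the control is subtracted, so that a low control is in part built in. In experiment 2 they were Il10, Nr4a3, Maff, Csf1 and Ccl4, and Csf1, the macrophage growth factor, had 1.47, 1.76 and 0.20. In experiment 3 they were Il1a, Saa3, Snord118, Rny3 and Il23a. Downward, Mindy2, a deubiquitinase, had -2.81 and the microRNA gene Mir142 -1.98 in experiment 3, against -0.24 and -0.18 in experiment 1. Egln3, a prolyl hydroxylase of the hypoxia pathway, differed in sign between experiments, at 2.12, 1.12 and -1.96.

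Small RNA genes with symbols of the classes Snord, Snora, Scarna, Rny and Rnu had their largest differences in experiment 3. These 61 genes were grouped after the values of Snord118 and Rny3 were seen. Their median difference was -0.03, 0.08 and 0.54 in experiments 1, 2 and 3, with 24, 38 and 44 of them above 0. The medians of all genes were 0.02, 0.01 and 0.06, and 11588 of all 19938 genes had a mean difference above 0. In Card9-/- cells the median of the 61 genes was 1.21 in experiment 3. Cytosolic ribosomal protein genes had medians of -0.06, -0.003 and 0.36. RNA quality was not measured in the values used, and its part in these differences was not tested.

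In Card9-/- cells the IC differences of the named genes were mostly smaller with the same sign. For the 12 upward genes the mean was above 0 in Card9-/- cells for 11, with a median of 0.61, and smaller than in wild-type cells for all 12. For the 12 downward genes it was below 0 for 12, with a median of -0.34, and smaller in size for 12. Since the genes were chosen by their wild-type values, a smaller difference elsewhere carries no weight by itself. In the test of the difference between genotypes 0 clusters (0%) passed, and 1062 (3.68%) had an unadjusted p under 0.05. Of the genes, 535 (2.68%) had such a p with a lower IC minus control difference in Card9-/- cells and 102 (0.512%) with a higher one. The lower ones included 12 of the 27 NF-kB genes and 7 of the 33 early genes. Rab20 had differences of 0.17, -0.06 and 0.48 in Card9-/- cells, a mean 0.80 lower than in wild-type cells (SE 0.16, unadjusted p in limma = 0.000424, adjusted p = 0.999). Ciart, a repressor of the circadian clock, differed by 1.34, 1.23 and 0.58 in Card9-/- cells and by 0.98, 1.56 and 0.80 in wild-type cells. For Rhov these differences were 1.19, 0.82 and 1.44 in Card9-/- cells, and the tests of the difference between genotypes had unadjusted p of 0.829 for Ciart and 0.309 for Rhov in limma.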

How the data were processed

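Gene expression was measured with an Affymetrix mouse gene array in 12 samples, 3 for each genotype (wild type, Card9-/-) on each surface (control, IC). Values are log2 signals per transcript cluster, as deposited by the authors. Their summarization and normalization: not given in the sources used here. Of 35556 rows, 6708 outside the range of annotated identifiers were left out and 28848 transcript clusters were tested, of which 21789 name 1 gene. A gene was represented by its single-gene cluster of highest mean signal (19938 genes), and 476 clusters repeat the values of an earlier one. Samples were grouped by their titles, whose experiment number pairs them. Deviations from the group means correlated at 0.706, 0.774 and 0.781 between the wild-type surfaces for the same number and at -0.612 to 0.113 for different numbers (the series' design text gives the experiments as independent occasions, each with the same stimulation of 4 h).

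The values were used as deposited, without a filter. The experiment entered as a fixed block in a fit of all 12 arrays with limma 3.58.1 under R 4.3.3 (lmFit, eBayes, 6 residual and 5.42 prior degrees of freedom). Tests were two-sided, and Benjamini-Hochberg adjustment ran over the 28848 clusters, with a threshold of 0.05. Tables and figures were made with Python 3.11.15, numpy 2.4.6, pandas 2.3.3 and matplotlib 3.10.9. Named genes were the 15 in each direction with the smallest p and the same sign in 3 of 3 experiments, the 12 in each direction with the largest of the smallest differences over the experiments, the 5 in each direction with the largest difference in each experiment, up to 4 of each of 48 lists with the smallest p, and genes of the study's quantitative PCR. The genes, lists and rules were chosen with earlier results of these data known. Lists (963 genes, 877 measured) are described by counts and medians, and 1 list is not reported here. Alternatives were 14 other settings, among them no block, a random block, other scalings, array weights and leaving out each experiment. Arrays give no read depth, and the number of 3 arrays per group limits the precision. Apart from the marker lists and the grouping of clusters by mean signal, signals of different clusters were not set against each other.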

Additional observations from a re-analysis of the deposited data

Results flagged for a closer look

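Of the 236 genes picked by the naming rules, 3 were on opposite sides in the genotypes, with all wild-type experiments above 0 and all Card9-/- experiments below 0. Of all genes 18.6% were above 0 in all 3 wild-type experiments, and the share with opposite signs in the genotypes was not counted. Tnf had a mean log2 difference between IC and control of 1.19 in the wild type and of -0.32 in Card9-/- cells, where the single differences were -0.16, -0.73 and -0.08. Icam1 had 1.11 and -0.35, with single differences of -0.21, -0.76 and -0.08 in Card9-/- cells. Ptgis, the prostacyclin synthase, had 0.19 and -0.07. The test of the difference between genotypes in limma passed for none of the 3 (unadjusted p of 0.00583, 0.00962 and 0.102 and an adjusted p of 0.999 for each). Since the 3 were picked by the signs of these same values, the unadjusted p carry no weight by themselves.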

How the results depend on the processing

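No cluster passed under quantile normalization, median centring, limma-trend, robust eBayes, no moderation, the wild-type arrays alone, identical clusters tested once or only clusters above the median signal. With array weights 2 clusters passed, both higher on IC (Rab20 and Rhov), and 1 passed for the difference between genotypes. Without the block for the experiment 0 passed, and the clusters with an unadjusted p under 0.05 and the same direction in 3 of 3 experiments were 51 higher and 16 lower, against 1352 and 1155 with the pairing kept. As a random block, 7 passed, all 7 higher. Median centring gave 634 higher and 1780 lower, quantile normalization gave 941 higher and 1248 lower, and only clusters above the median signal gave 498 higher and 1009 lower. Under each of these settings most were then lower. No moderation gave 587 lower. Leaving out 1 experiment at a time, 1 to 51 clusters passed, 1 to 8 of them higher and 0 to 50 lower. The 50, without experiment 1, hold 1 set of identical values, and 8 passed without experiment 3. Clusters with a difference of 0.5 or more in each remaining experiment were then 79 to 213 higher and 52 to 111 lower, where fewer experiments have to pass. Of 119 genes named, Egln3 ran from -0.42 (without experiment 1) to 1.62 and Rny3 from -0.14 (without experiment 3) to 0.95, and the other 117 kept their direction under each of the 14 settings that tested them. This is largely built in. Settings that change only the block, the moderation or the set of clusters leave the difference of a gene as it is. A gene with the same sign in 3 of 3 experiments also cannot change direction when 1 experiment is left out. The cause of the changes between settings was not tested, except where the construction is given. The number of arrays limits which differences could pass.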
